A study of Mus musculus with 24 samples.

Results

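Presentation of antigen on major histocompatibility complex (MHC) class II molecules was followed through 9 genes, *Ciita*, *H2-Aa*, *H2-Ab1*, *H2-Eb1*, *Cd74*, *H2-DMa*, *H2-DMb1*, *H2-DMb2* and *Ctss*, during reprogramming of mouse neural precursor cells (NPCs) into induced pluripotent stem cells (iPSCs) with and without interferon γ (IFNγ). The genes were chosen by name as the core of the pathway and found in the deposited table by their identifiers. All 9 were among its 37315 genes, and 7 of them had a mean above 10 normalized counts over the 24 libraries, as 16247 genes of the whole table did. *H2-DMb2* and *Ctss* were below that mean. A normalized count is the number of reads on a gene divided by the size factor of its library.

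The 24 libraries came from 12 populations with 2 replicates each, all derived from PaX, a female embryonic stem cell (ESC) line of hybrid 129S1/SvImJ, CAST/EiJ origin. It carries a green fluorescent protein reporter on the *Mus musculus* X chromosome (X-GFP), a truncated *Tsix* and a doxycycline-inducible cassette of *c-Myc*, *Klf4*, *Oct4* and *Sox2*. The populations were untreated ESCs, NPCs made from them, reprogramming cells at day 2 and at day 5, and, at day 7, cells sorted as X-GFP–negative, –medium or –high, the reprogramming cells from a control arm and from an arm given IFNγ (10 ng/ml) between day 0 and day 5. Both arms received doxycycline and grew on irradiated male mouse embryonic fibroblast feeders, whereas ESCs and NPCs were cultured without them. Day 2 cells were sorted as negative for the dye CFSE, with which the feeders had been stained, and day 5 and day 7 cells were enriched and sorted for SSEA1, a surface marker of reprogramming cells. Day 7 cells had been without IFNγ since day 5. All values therefore describe 1 hybrid line and sorted cells. The authors call the 2 replicates behind their pluripotency score, taken from these data, independent. Their RNA-seq methods and the labels do not say whether the replicates were separate cultures, so that the tests measure the spread between the libraries.

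Class II molecules display peptides from endosomes to CD4+ T cells. They are pairs of an α and a β chain, encoded here by *H2-Aa* and *H2-Ab1* for I-A and by *H2-Eb1* for the β chain of I-E. *Cd74* encodes the invariant chain, which occupies their groove until the protease cathepsin S (*Ctss*) trims it in the endosome, and the H2-DM chains (*H2-DMa*, *H2-DMb1*, *H2-DMb2*) help to exchange the remaining fragment for a peptide. *Ciita* encodes the class II transactivator, which does not bind DNA itself but is recruited to the proteins on the conserved promoter boxes of these genes. Dendritic cells, macrophages and B cells express the pathway constitutively, and IFNγ is the classical inducer of *Ciita* in most other cells, by way of JAK1, JAK2 and IRF1.

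Reads counted on genes ranged from 24746109 to 37056508 per library with a median of 28332223. The markers of ESCs and NPCs fitted the labels. The summed level of 6 ESC markers was 131759 to 139430 normalized counts in ESCs and 60.6 to 88.5 in NPCs, and that of 6 NPC markers was 43258 to 45705 in NPCs and 796 to 865 in ESCs. RNA of the male feeders was present at day 2, with a summed level of 4 Y-linked genes of 125 to 253 in the 4 libraries, and was low elsewhere, at no more than 12.5. The summed level of 7 fibroblast markers was 28358 to 40587 in NPCs, which had no feeders, so that this list does not mark feeders alone. No library was left out.

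The genes lay at 3 places in the genome (GENCODE vM21, GRCm38/mm10). Within 197134 bases of chromosome 17 were *H2-DMa* (chr17:34119541-34139101, plus strand), *H2-DMb2* (chr17:34143307-34151555, plus), *H2-DMb1* (chr17:34153072-34160230, plus), *H2-Ab1* (chr17:34257689-34269419, plus), *H2-Aa* (chr17:34282744-34287823, minus) and *H2-Eb1* (chr17:34305867-34316674, plus). *Ciita* lay at chr16:10480059-10528418 (plus), *Cd74* at chr18:60803848-60812652 (plus) and *Ctss* at chr3:95526786-95556403 (plus). *H2-DMb1* and *H2-DMb2* were near-identical in part, sharing 22.7% and 21.2% of their exonic 50-base words, so that reads could be split between them and their values are uncertain. *H2-DMa* overlapped *Brd2* on the other strand, with 8.43% of its words shared, and *Ciita* overlapped *Dexi* with 1.46%. Whether the counting used strand is not given in the sources used here.

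The mean level of each member was the highest in IFNγ-treated cells at day 2, although for *H2-DMb1* and *H2-DMb2* those libraries overlapped the X-GFP–medium libraries of the IFNγ arm. *Ciita* had 606 and 378 normalized counts in the 2 libraries of that population. It came next in X-GFP–high cells, with 72.0 and 49.7 in the IFNγ arm and 33.0 and 29.9 in the control arm, followed by X-GFP–medium cells of the IFNγ arm with 34.7 and 24.05. The last of these pairs overlapped the control X-GFP–high libraries. Day 5 cells of the IFNγ arm had 15.5 and 16.6, ESCs 11.8 and 19.98, X-GFP–negative cells of the IFNγ arm 9.67 and 7.92, and control X-GFP–medium cells 5.93 and 9.29. Day 2, day 5 and X-GFP–negative control cells had 0 or 1 read per library, and NPCs had 0 reads in both libraries, which allows up to 3 reads over the population. *Ciita* thus had reads in ESCs and, without IFNγ, in day 7 cells with X-GFP signal, and was at or near 0 in NPCs and in the control cells in between. Of the 11 neighboring steps in this order of 12 populations, 5 separated populations whose libraries did not overlap.

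**Figure D1:**
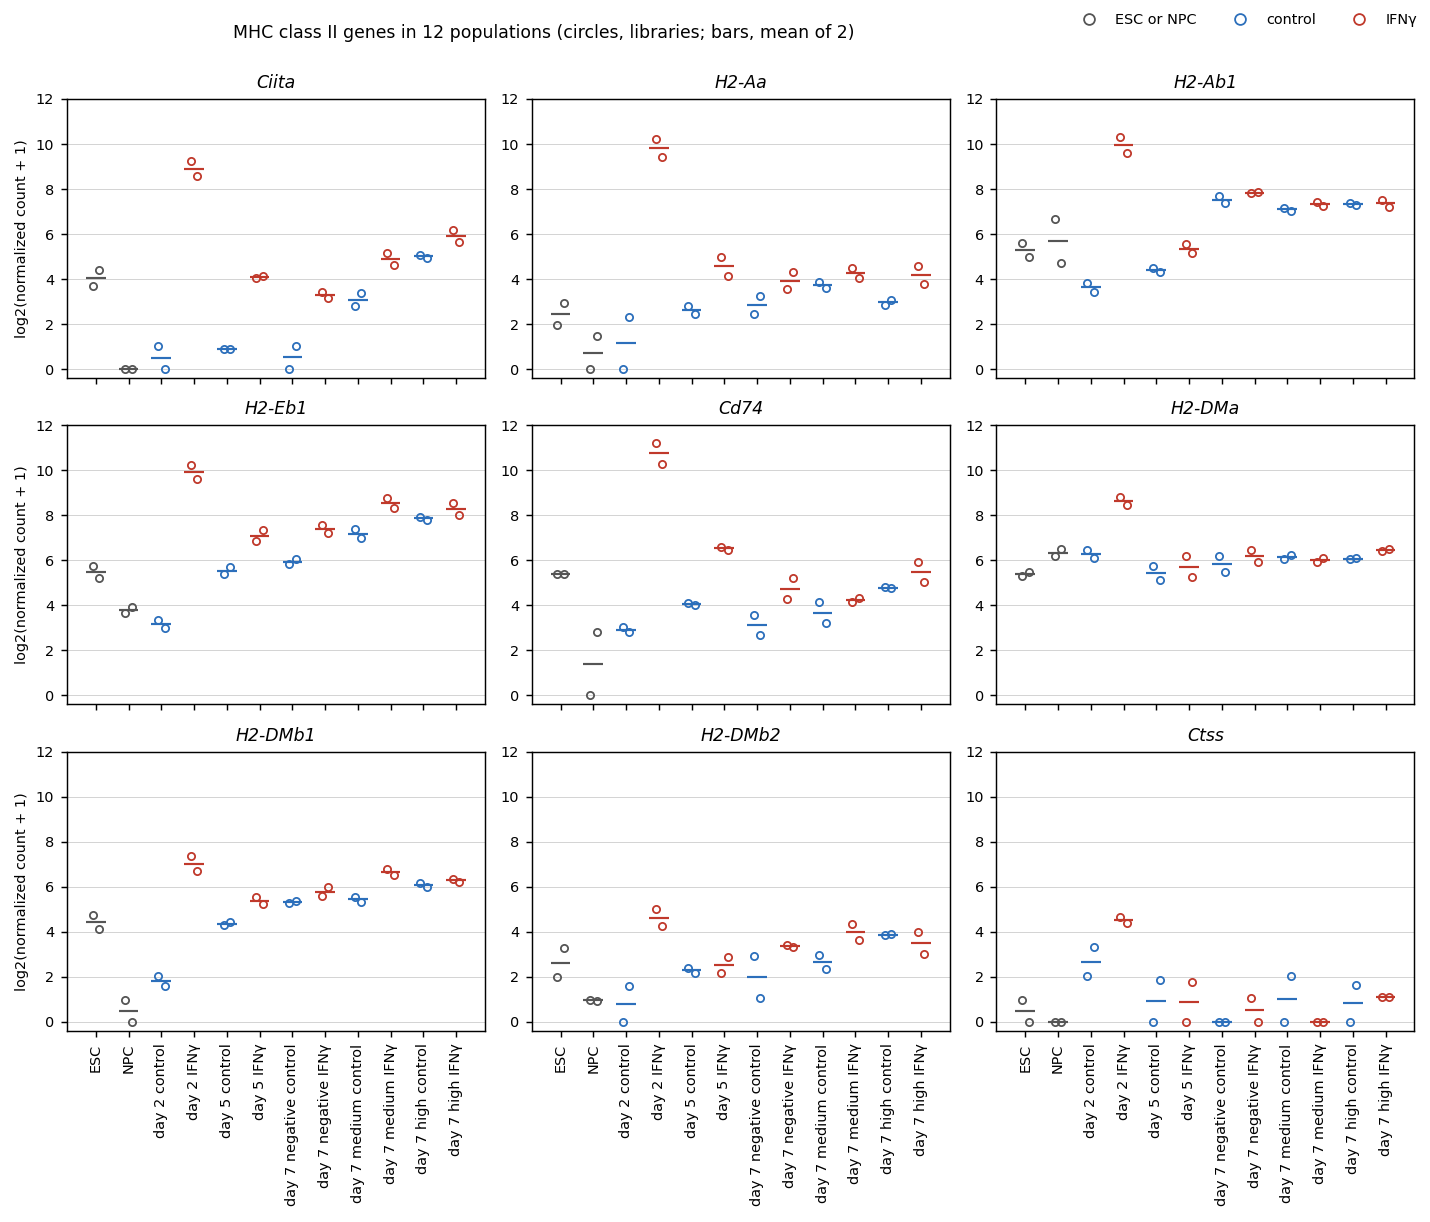
Levels of the 9 MHC class II genes, 1 panel per gene, as log2(normalized count + 1) on the vertical axis for each of the 12 populations on the horizontal axis, where negative, medium and high mean the X-GFP fractions of day 7. Circles are libraries and bars the mean of 2 libraries, in gray for ESCs and NPCs, blue for control and red for IFNγ-treated populations. The mean of day 2 IFNγ is the highest in all panels, with circles that overlap those of medium IFNγ for *H2-DMb1* and *H2-DMb2*, and *H2-Ab1*, *H2-Eb1* and *H2-DMb1* lie above ESCs at day 7 in both arms.

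Among the chain genes, *H2-Aa* was the most restricted to day 2 IFNγ, with 1209 and 689.7 normalized counts there and at most 31.0 in any other library. ESCs had 2.95 and 6.66, NPCs 0 and 1.76, and day 7 control cells between 4.39 and 13.8. Its partner *H2-Ab1* followed another order. After day 2 IFNγ, with 1263 and 767, the next 6 places were all taken by day 7 populations, with X-GFP–negative control cells at 204 and 163, X-GFP–medium control cells at 142 and 129, and X-GFP–high control cells at 166 and 157. In X-GFP–negative control cells *H2-Ab1* was therefore present at this level with 0 and 1 read of *Ciita*. NPCs had 100.2 and 25.5, ESCs 48.2 and 30.5, and day 2 control cells the lowest, 13.2 and 9.93. The ratio of the NPC libraries to each other was higher than in any other pair for this gene.

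*H2-Eb1*, the I-E β chain, was higher in each successive control population and X-GFP fraction. It had 9.17 and 6.95 normalized counts in day 2 control cells, 41.2 and 50.6 at day 5, and at day 7, from the negative to the high fraction, 56.0 and 65.4, 165 and 125, and 244 and 219, with no overlap between any of these neighbors. ESCs had 53.1 and 36.2 and NPCs 11.7 and 14.1. The step from day 2 to day 5 is tested further on and the steps within day 7 were not tested. ESC markers moved along with these fractions, the summed level of the 6 genes being 36314 to 39576, 57820 to 59134 and 94387 to 98130 in negative, medium and high control fractions, and their part in the result was not tested.

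*Cd74*, the invariant chain, had 2359 and 1257 normalized counts at day 2 with IFNγ and 95.7 and 87.8 at day 5 with IFNγ. All other libraries had at most 60.5. ESCs were at 41.3 and 40.9, close to X-GFP–high cells of the IFNγ arm with 60.5 and 32.4, and NPCs at 0 and 6.15. Unlike *H2-Ab1* and *H2-Eb1*, it stayed low in day 7 control cells, with 10.97 and 5.36, 16.8 and 8.26, and 26.8 and 26.7 from the negative to the high fraction.

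The peptide-exchange genes also differed from one another. *H2-DMa* was expressed in all 24 libraries, between 33.7 and 89.6 normalized counts outside day 2 IFNγ, and only 1 of its 11 neighboring steps separated populations without overlap. *H2-DMb1* had 0.97 and 0 in NPCs, 25.6 and 16.2 in ESCs, and 37.3 to 70.1 in day 7 control cells, where X-GFP–high cells (70.1 and 61.9) lay above the other fractions. *H2-DMb2* never exceeded 30.8. *Ctss* had at most 3.10 in any library outside day 2, with 0 to 3 reads each, and its 2 control libraries at day 2 held 3 and 9 reads. Per kilobase of exon, the day 2 IFNγ means were 1077 normalized counts for *Cd74*, 514 for *H2-Eb1*, 395 for *H2-Ab1*, 249.9 for *H2-Aa*, 115 for *H2-DMa*, 78.7 for *H2-DMb1*, 51.6 for *Ciita*, 16.2 for *Ctss* and 13.9 for *H2-DMb2*. How well reads of the CAST/EiJ alleles mapped at each gene was not tested, so that the order between genes is uncertain.

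IFNγ raised most of the class II genes at day 2, the comparison that addressed the early response to the cytokine in cells leaving the NPC state. Past an adjusted p of 0.1 in limma on log2(normalized count + 1), 8 of the 9 members were higher with IFNγ and none was lower. Of all 15697 genes tested, 5.03% were called higher and 8.49% in either direction. Of the members, 7 had a control mean of at most 10 and entered the test through their IFNγ libraries, so that their count is a description. The median of the 9 log2 fold changes was 6.30 and that of all genes 0.0054. In bulk samples, fewer cells of a type and less RNA per cell cannot be told apart.

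*Cd74* went from 7.13 and 5.96 normalized counts in control cells to 2359 and 1257, which is 276-fold, with a log2 fold change of 7.84 ± 0.31 (SE, adjusted p = 3e-05). *H2-Aa* went from 0 and 3.97 to 1209 and 689.7, a log2 fold change of 8.68 ± 0.72 (adjusted p = 0.0013). *Ciita* had 1 and 0 reads in control cells and 648 and 382 with IFNγ. Its ratio of reads, 985, has a 95% counting interval from 176 to 38944, and its log2 fold change of 8.40 ± 0.44 (adjusted p = 0.00013) depends on the pseudocount. *Ciita*, *Cd74* and *H2-Aa* thus had at most 7.13 normalized counts in control cells and were high in both IFNγ libraries.

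The other chain genes rose from low but measured levels. *H2-Eb1* went from 9.17 and 6.95 to 1212 and 789, or 124-fold, and *H2-Ab1* from 13.2 and 9.93 to 1263 and 767, or 87.6-fold (log2 fold changes 6.77 ± 0.26 and 6.30 ± 0.28, adjusted p = 3e-05 and 5.7e-05). *H2-DMb1* reached 163 and 102 from 3.06 and 1.99, with a log2 fold change of 5.22 ± 0.37 (adjusted p = 0.0006). *H2-DMa*, already present in control cells at 86.6 and 67.5, reached 446 and 350.3, which is 5.17-fold (log2 fold change 2.36 ± 0.19, adjusted p = 0.0013). It had the highest control level of the 9 per kilobase of exon, 22.3 normalized counts, and the lowest fold change of those past the threshold.

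*H2-DMb2* had 0 and 2 reads in control cells and 33 and 18 with IFNγ, a ratio of 24.4 with a counting interval from 6.41 to 207, and passed the test (log2 fold change 3.82 ± 0.65, adjusted p = 0.025). *Ctss* had 3.06 and 8.93 normalized counts against 24.3 and 19.8, apart but not past the threshold (log2 fold change 1.85 ± 0.51, adjusted p = 0.105). Without the second control library, which had the higher value, *Ctss* passed at 2.5 (adjusted p = 0.082). The protease was therefore the only member whose call was missed at day 2, by a narrow margin and with 46 reads over both IFNγ libraries.

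**Figure D2:**
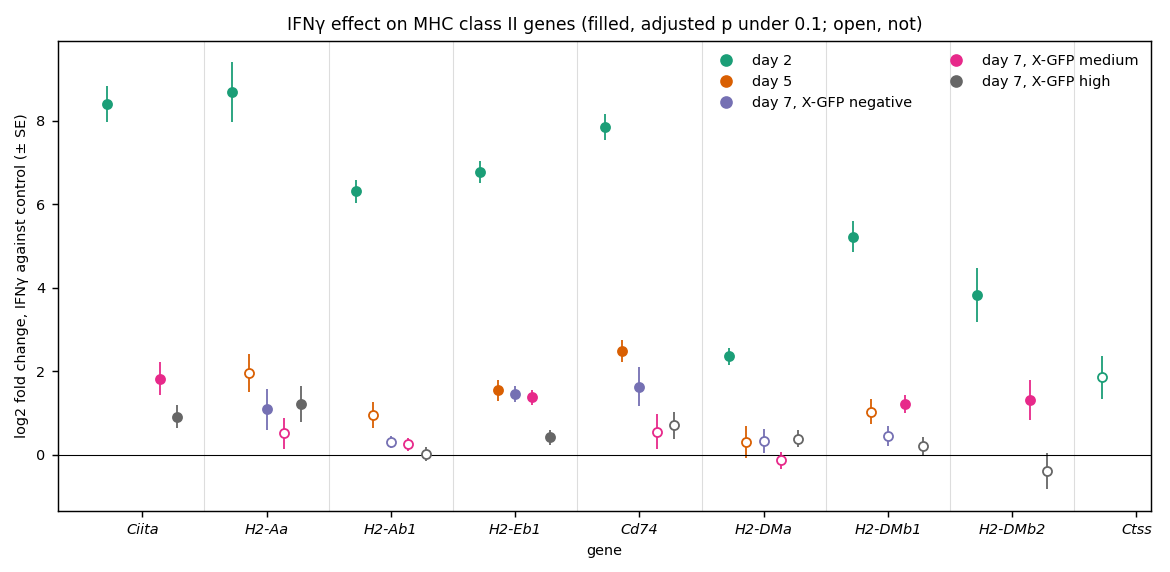
Log2 fold change of the 9 genes between IFNγ-treated and control cells, with its SE as bars, in the 5 comparisons marked by color (day 2, day 5 and the 3 X-GFP fractions of day 7). Filled points passed an adjusted p of 0.1 and open points did not, and genes at or below a mean of 10 have no point. The day 2 values run from 1.85 for *Ctss* to 8.68 for *H2-Aa*, and the highest later value is 2.49, for *Cd74* at day 5.

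The replicates of day 2 IFNγ differed in these genes. Replicate 1 was above replicate 2 for all 9 members, by 1.23-fold to 1.88-fold with a median of 1.60, whereas the median over the 15745 genes with a mean above 10 was 1.01 and the central 95% of them lay between 0.613 and 1.67 with 1 added to each value. *Cd74* differed most and *Ctss* least. The genes of IFNγ signaling did not share this shift, with ratios of 1.06 for *Irf1* and 1.00 for *Irf8*, and the class II region neighbors *Tap1* and *Psmb9* had 0.974 and 0.933. The shift was not particular to the members, since *H2-Eb2*, a further class II gene, had a ratio of 1.79 and, among the ESC markers, *Nanog* had 1.42, *Zfp42* 1.67 and *Esrrb* 2.12, while *Pou5f1* had 1.05. This difference between 2 libraries has no replicate of its own. The summed Y-linked level was 125 in replicate 1 and 223 in replicate 2, and that of 7 fibroblast markers 29970 and 24554. The control libraries had 253 and 218 for the Y-linked genes and 60570 and 40837 for the fibroblast markers, a list that NPCs express as well. The part of feeder RNA and of ESC marker expression in the class II values was not tested.

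**Figure D3:**
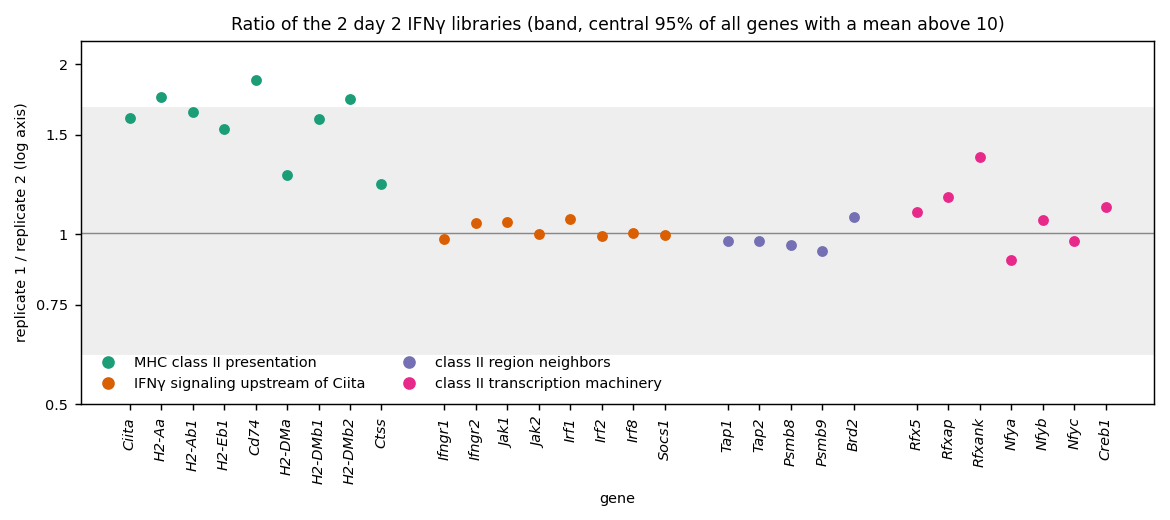
Ratio of replicate 1 to replicate 2 of day 2 IFNγ on a log axis for the 9 MHC class II genes and for the genes of 3 related lists, with the gray band showing the central 95% and the gray line the median (1.01) of all genes with a mean above 10. All 9 class II points lie above 1, between 1.23 and 1.88, while the IFNγ signaling genes lie between 0.98 and 1.06.

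Markers of the cells that express class II molecules constitutively were low at day 2. Of 10 markers of macrophages and dendritic cells, 10 had reads in control and 9 in IFNγ libraries. Their summed level was 241 to 279 and 209 to 321 normalized counts, most of it *Cd68* (116 to 154) and *Lyz2* (46.7 to 113). The sum was 265 to 283 in ESCs but lower in NPCs, at 106 to 132. In NPCs 6 of the 10 had reads, and *Ptprc*, *Tyrobp*, *Aif1* and *Itgax* were at 0 in both libraries. At day 2 the pan-leukocyte gene *Ptprc* had 2.98 to 6.93, *Tyrobp* at most 5.09, *Aif1* at most 0.99 and *C1qa* at most 1.98. *Itgax* was at 0 in both IFNγ libraries of day 2. The macrophage gene *Adgre1* had 7.94 to 21.4 in control and 22.4 to 38.6 in IFNγ libraries, which did not overlap. Between the 2 IFNγ libraries the macrophage and dendritic cell markers went both ways. Replicate 1 was below replicate 2 for *Adgre1*, *Ptprc*, *Csf1r*, *Cd68*, *C1qa* and *Lyz2*, and above it for *Tyrobp*, *Itgam* and *Aif1*. Of 5 B cell markers 4 had reads with IFNγ, with a summed level of 17.8 to 28.0 against 39.7 to 41.7 in control cells, and *Ms4a1* was at 0. The part of such cells in the class II values was not tested.

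Promoter sequences are shown for the 4 members found to carry the same boxes, all past the threshold at day 2, and for *Ctss*, which missed it. *H2-DMa*, which passed without TGATTGG in its windows, is described in words. In the RefSeq promoter table on GRCm38.p6, which gives 250 bases before and 50 after each start, 6 of the 9 members had an entry. The stretches below carry the boxes by which class II promoters are known, and the capitals mark each motif found. These are TGATTGG, the Y box bound by NF-Y, in all of the 4 chain and DM genes, GCAAC, the core of the X box bound by the RFX complex, AAC and TGATG with any 3 bases between them, a longer string that takes in the end of that box, and TGACG, the core of the site for CREB proteins. The stretch of *Ctss* shows GAAA repeated after any 2 bases, a form of the interferon response element.
H2-Aa (chr17:34287854-34287923, minus strand): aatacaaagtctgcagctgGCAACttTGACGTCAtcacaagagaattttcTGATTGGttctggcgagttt
H2-Eb1 (chr17:34305756-34305825, plus strand): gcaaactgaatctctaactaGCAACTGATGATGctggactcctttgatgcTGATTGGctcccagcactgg
H2-DMb1 (chr17:34153078-34153147, plus strand): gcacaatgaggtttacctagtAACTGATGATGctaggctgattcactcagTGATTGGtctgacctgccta
H2-DMb2 (chr17:34145107-34145176, plus strand): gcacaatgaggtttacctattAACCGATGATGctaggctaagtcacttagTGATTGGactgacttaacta
Ctss (chr3:95526725-95526784, plus strand): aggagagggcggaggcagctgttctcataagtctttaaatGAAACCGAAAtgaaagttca

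Searched on both strands, TGATTGG began 50 bases before the start of *H2-Aa*, 61 before *H2-Eb1*, 63 before *H2-DMb1* and 92 before *H2-DMb2*, and 7.82% of all 32851 windows of this length held it. GCAAC was in 35.2% of windows, TGACG in 20.8%, the repeated GAAA in 3.44% and AAC with TGATG in 0.615%. In *H2-Eb1* the matches of GCAAC and of AAC with TGATG overlap, and in *H2-Aa* TGACG matches on both strands over the same letters. The arrangement was rarer than the single motifs. GCAAC or AAC with TGATG began 28 to 31 bases before TGATTGG in these 4 genes, and a spacing of 25 to 35 bases on the same strand, chosen after these were seen, occurred in 37 windows, or 0.113%. These windows also included *H2-Oa*, *H2-Ob* and *H2-Eb2*. Neither window of *H2-DMa* held TGATTGG or AAC with TGATG, and *Ctss* held none of the first 4 motifs.

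At day 5, after longer treatment, *Cd74* and *H2-Eb1* were higher with IFNγ. These were 2 of the 9 members and of the 6 that had a mean above 10, where 1.65% of 15133 genes were called higher and 2.18% in either direction. *Cd74* had 15.99 and 15.1 normalized counts without and 95.7 and 87.8 with IFNγ, or 5.90-fold (log2 fold change 2.49 ± 0.26, adjusted p = 0.0081). *H2-Eb1* had 41.2 and 50.6 against 115 and 159.8, or 2.99-fold (1.55 ± 0.25, adjusted p = 0.055). Its call was lost without control replicate 1 (1.40, adjusted p = 0.159), without IFNγ replicate 2 (1.31, adjusted p = 0.252) and without the filter on low values (adjusted p = 0.112).

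The remaining members at day 5 were close to the threshold or low. *H2-Aa* had 5.89 and 4.44 against 31.0 and 16.6 (log2 fold change 1.96 ± 0.44, adjusted p = 0.115), *H2-DMb1* 18.5 and 20.4 against 45.7 and 36.4 (1.03 ± 0.30, adjusted p = 0.169) and *H2-Ab1* 21.9 and 18.6 against 45.7 and 34.8 (0.95 ± 0.31, adjusted p = 0.193). For all of these the libraries of both groups were apart, as for 6 of the 9 members in the higher direction, where 26.6% of all genes tested were. *Ciita*, below the filter, had 1 and 1 reads without and 18 and 21 with IFNγ, a ratio of 18.6 with a counting interval from 4.82 to 159, and passed without the filter (adjusted p = 0.053). *H2-DMa* did not differ beyond its spread, with 52.2 and 33.7 against 72.4 and 37.2 and a log2 fold change of 0.30 ± 0.39, negative without either the second control or the first IFNγ library (-0.0064 and -0.17). *H2-DMb2* had 9 reads over the control and 12 over the IFNγ libraries, and *Ctss* 3 in each arm.

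The IFNγ effect at day 5 was smaller than at day 2. Tested as an interaction in the 8 libraries of both days, 6 of the 9 members, and of the 7 tested, passed the threshold, all with a smaller effect at day 5, where 0.474% of 15837 genes were called in that direction and 0.676% in either. *Ciita* had means of 0.51 in day 2 control, 0.86 in day 5 control and 16.1 in day 5 IFNγ cells. In the same order *H2-Aa* had 1.99, 5.17 and 23.8. Both entered the test mainly through their day 2 IFNγ libraries, so that the count is a description. The difference of the log2 fold changes was -5.36 ± 0.43 for *H2-Ab1*, -5.35 ± 0.42 for *Cd74*, -5.22 ± 0.39 for *H2-Eb1* and -4.19 ± 0.48 for *H2-DMb1* (adjusted p from 0.00097 to 0.007). *Ciita* had -5.21 ± 0.62 (adjusted p = 0.0076) but did not pass with a pseudocount of 0.1, DESeq2 or edgeR (adjusted p = 0.155, 0.102 and 0.379). *H2-Aa* had -6.72 ± 0.96 (adjusted p = 0.021) and did not pass with a pseudocount of 0.1, with edgeR, without IFNγ replicate 1 of day 2 or without IFNγ replicate 2 of day 5 (adjusted p from 0.105 to 0.204). *H2-DMa* missed the threshold at -2.06 ± 0.48 (adjusted p = 0.182), but passed without IFNγ replicate 1 of day 5 (-2.53, adjusted p = 0.045), with DESeq2 and with all 24 libraries in 1 fit.

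Compared directly between the IFNγ arms, all 9 members were lower at day 5 than at day 2, where 36.7% of 15870 genes were called lower and 70.7% in either direction. Of these, *Ctss* and *H2-DMb2* had day 5 means of 1.19 and 4.89 and entered the test through their day 2 libraries, so that the count is a description. The log2 difference was -5.27 for *H2-Aa*, -4.81 for *Ciita*, -4.59 for *H2-Ab1*, -4.22 for *Cd74*, -3.64 for *Ctss*, -2.90 for *H2-DMa*, -2.84 for *H2-Eb1*, -2.10 for *H2-DMb2* and -1.64 for *H2-DMb1*, with adjusted p of at most 0.0073. All 9 remained past the threshold in the fits that kept every library. The day 5 IFNγ mean was therefore 2.51% of the day 2 IFNγ mean for *H2-Aa*, 3.27% for *Ciita*, 3.97% for *H2-Ab1* and 5.07% for *Cd74*. It was 13.7% for *H2-Eb1*, 13.8% for *H2-DMa* and 31.0% for *H2-DMb1*. In the same libraries it was 61.5% for *Irf1*, 26.2% for *Psmb8*, 19.5% for *Tap1* and 11.5% for *Irf8*. These percentages compare levels and not IFNγ effects, since they include what was present without IFNγ. At day 5 the control and IFNγ means were 42.96 and 54.8 for *H2-DMa*, 19.5 and 41.0 for *H2-DMb1*, and 0.86 and 16.1 for *Ciita*. Day 2 and day 5 cells were sorted differently, and the sort and the day cannot be told apart.

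**Figure D4:**
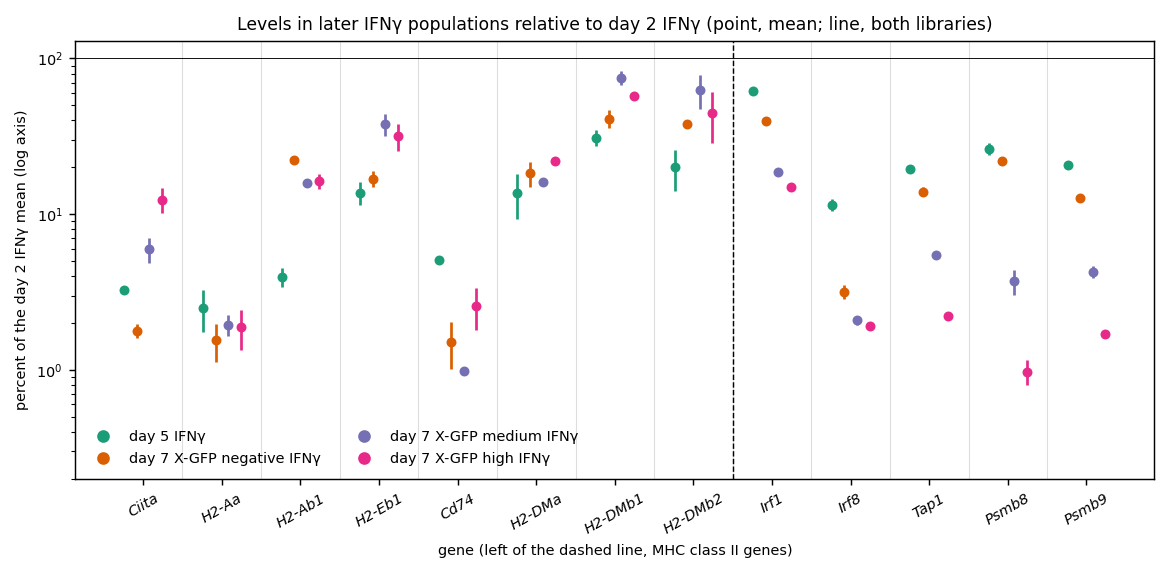
Mean level in later IFNγ-treated populations as a percent of the day 2 IFNγ mean, on a log axis, for 8 MHC class II genes left of the dashed line and 5 other IFNγ-responsive genes right of it (*Ctss* is left out because it was at 0 in both libraries of X-GFP–medium cells). Points are means of 2 libraries, lines span both, and colors mark day 5 and the 3 X-GFP fractions of day 7. From X-GFP–negative to X-GFP–high cells *Ciita* goes from 1.79% to 12.4%, and *Tap1* from 13.98% to 2.23%. Control cells are not drawn, and in them the mean of *Ciita* also goes up, from 0.54 to 31.4 normalized counts between these fractions.

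At day 7, when IFNγ had been withdrawn, 3 or 4 of the class II genes passed in each X-GFP fraction, while many genes of the whole table were called. Of those that passed, *H2-Aa* and *Cd74* in X-GFP–negative cells, *Ciita* and *H2-DMb2* in X-GFP–medium cells and *H2-Aa* in X-GFP–high cells had a control mean of at most 10 and entered the test through their IFNγ libraries, so that these counts are descriptions.

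Other markers also moved between the arms at day 7. The summed level of the 7 fibroblast markers was 4314 to 4933 normalized counts in control and 722 to 793 in IFNγ libraries of the negative fraction, 4893 to 5503 and 410 to 536 in the medium, and 1946 to 2419 and 406 to 545 in the high fraction. That of the 10 macrophage and dendritic cell markers was 2491 to 2967 and 1071 to 1187, 1876 to 2185 and 999.6 to 1223, and 1143 to 1286 and 539 to 714 in the same order. Most of it was *Cd68*, between 513 and 2740, and *C1qa* was at 0 in both arms of all 3 fractions. The 5 B cell markers summed to 96.5 to 156 in control and 53.7 to 136 in IFNγ libraries. The 6 ESC markers were higher with IFNγ, at 36314 to 39576 against 39988 to 40837, 57820 to 59134 against 76934 to 78160, and 94387 to 98130 against 109463 to 111535. The summed levels of fibroblast and macrophage markers were thus lower and that of ESC markers higher in the IFNγ arm of each fraction, with no overlap. Single macrophage and dendritic cell markers did not all follow the sum. Of the 10, 5 had reads in control and 7 in IFNγ libraries of the negative fraction. In the medium fraction these were 6 and 4, and in the high fraction 6 and 7. *Adgre1* and *Lyz2* were at 0 in both X-GFP–negative control libraries and had reads in the IFNγ arm. The part of all these markers in the class II values was not tested.

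In X-GFP–negative cells 3 of the 9 members, and of the 6 tested, were higher and none lower, and 31.1% of 15531 genes were called higher (61.9% in either direction). These were *H2-Eb1*, with 56.0 and 65.4 against 189 and 149 and a log2 fold change of 1.46 ± 0.19 (adjusted p = 0.0002), *Cd74*, with 10.97 and 5.36 against 18.3 and 36.6 (1.62 ± 0.47, adjusted p = 0.016), and *H2-Aa*, with 4.39 and 8.58 against 10.7 and 18.8 (1.09 ± 0.49, adjusted p = 0.087). Without IFNγ replicate 2 the call of *Cd74* was lost (1.14, adjusted p = 0.147), and without control replicate 1 that of *H2-Aa* (0.67, adjusted p = 0.321). *H2-Aa* also lost it without the filter, with all 24 libraries in 1 fit and with DESeq2 (adjusted p = 0.146, 0.164 and 0.305). *H2-Ab1* had 204 and 163 against 223 and 229.6, a log2 fold change of 0.31 ± 0.15 (adjusted p = 0.101), and *H2-DMb1* 37.3 and 40.8 against 47.3 and 61.4 (0.46 ± 0.24, adjusted p = 0.135). These missed the threshold, and both passed it when values were rescaled to the same total (0.47 and 0.61), a setting in which the median of all genes was 0.17 and 6730 genes were called higher and 3417 lower, against 4836 and 4781 otherwise. *H2-Ab1* also passed without control replicate 1 (0.47, adjusted p = 0.056) and *H2-DMb1* without IFNγ replicate 1 (0.64, adjusted p = 0.093). *H2-DMa* had 0.33 ± 0.28. *Ciita* had 0 and 1 read in control and 9 and 8 reads in IFNγ libraries, and passed without the filter (adjusted p = 0.012).

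In X-GFP–medium cells *Ciita* itself was higher, with 5.93 and 9.29 against 34.7 and 24.05 (log2 fold change 1.82 ± 0.39, adjusted p = 0.003), together with *H2-Eb1*, 165 and 125 against 439 and 319.9 (1.38 ± 0.18, adjusted p = 0.00014), *H2-DMb1*, 45.5 and 39.2 against 109.7 and 89.9 (1.21 ± 0.22, adjusted p = 0.00096), and *H2-DMb2*, 6.92 and 4.13 against 19.0 and 11.5 (1.31 ± 0.47, adjusted p = 0.038). That is 4 of the 9 members higher and none lower, where 33.3% of 15595 genes were called higher and 62.9% in either direction. *H2-DMb2* lost its call without control replicate 2 (1.00, adjusted p = 0.17) and with DESeq2 (adjusted p = 0.22). *Cd74* did not pass, with 16.8 and 8.26 against 16.8 and 18.8 (0.55 ± 0.42), nor did *H2-Aa* (0.51 ± 0.37), *H2-Ab1* (0.25 ± 0.15) or *H2-DMa* (-0.13 ± 0.21). Without IFNγ replicate 2, *H2-Ab1* passed at 0.33 (adjusted p = 0.091).

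Among X-GFP–high cells, calls depended on single libraries and settings. *Ciita* had 33.0 and 29.9 against 72.0 and 49.7 (log2 fold change 0.91 ± 0.27, adjusted p = 0.026), *H2-Aa* 6.19 and 7.47 against 22.8 and 12.7 (1.21 ± 0.43, adjusted p = 0.053) and *H2-Eb1* 244 and 219 against 378 and 254 (0.42 ± 0.18, adjusted p = 0.091). These 3 of the 9 members were called higher and none lower, where 18.1% of 15598 genes were called higher and 38.5% in either direction. None of the 3 passed with DESeq2, with all 24 libraries in 1 fit or without the filter, and none passed without control replicate 2, when *Ciita* had 0.84 (adjusted p = 0.111), *H2-Aa* 1.33 (adjusted p = 0.103) and *H2-Eb1* 0.34 (adjusted p = 0.307). Without control replicate 1 the calls of *H2-Aa* (1.09, adjusted p = 0.22) and *H2-Eb1* (0.50, adjusted p = 0.162) were lost, and without IFNγ replicate 1 those of *Ciita* (0.65, adjusted p = 0.125) and *H2-Eb1* (0.14, adjusted p = 0.554). *Cd74* had 26.8 and 26.7 against 60.5 and 32.4 (0.71 ± 0.33, adjusted p = 0.123), and passed without IFNγ replicate 2, at 1.15 (adjusted p = 0.0046), and with edgeR, at 0.78 (adjusted p = 0.089). *H2-Ab1* was the same in both arms within its spread, 166 and 157 against 183 and 147 (0.02 ± 0.17), *H2-DMb1* had 0.21 ± 0.21, *H2-DMa* 0.39 ± 0.20 and *H2-DMb2* -0.38 ± 0.44.

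The IFNγ effect on *H2-Eb1* was smaller in the X-GFP–high fraction than in the negative one. In an interaction over these 8 libraries its difference was -1.04 ± 0.28 (adjusted p = 0.03), and *Ciita* had -1.85 ± 0.61 (adjusted p = 0.064), 2 of the 9 members, where 13.3% of 15764 genes were called in this direction and 22.8% in either. The control value of *Ciita* in X-GFP–negative cells rested on 1 read. Its difference did not pass with DESeq2 (adjusted p = 0.217), without the filter (adjusted p = 0.141) or without any 1 of 5 of the 8 libraries, which were both control libraries and IFNγ replicate 2 of X-GFP–high cells and control and IFNγ replicate 1 of X-GFP–negative cells (-1.92 to -1.33, adjusted p from 0.149 to 0.169), and that of *H2-Eb1* not without control replicate 1 of either fraction (-0.93 and -0.96, adjusted p = 0.102 and 0.107). The other 5 members tested did not pass. With values rescaled to the same total the median of all genes was -0.20, and 656 genes were called higher and 4071 lower, against 1487 and 2101 otherwise. Between X-GFP–negative cells and day 5, limma called no member for a difference of the IFNγ effect, as did DESeq2 and edgeR, and 0 had an unadjusted p under 0.05, while 40.3% of 15407 genes were called in either direction. Without IFNγ replicate 2 of day 5, *H2-Ab1* was called (-0.83, adjusted p = 0.082). Rescaling to the same total changed the split from 2746 higher and 3465 lower to 4133 and 2428, with a median of 0.13.

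From day 5 to X-GFP–negative cells of day 7 in the IFNγ arm, the members went opposite ways. *H2-Ab1* rose from 45.7 and 34.8 to 223 and 229.6, a log2 difference of 2.48 ± 0.21 (adjusted p = 0.00066), and *Cd74* fell from 95.7 and 87.8 to 18.3 and 36.6, by 1.78 on the log2 scale (SE 0.35, adjusted p = 0.0083). Both calls remained in every setting tried. The other 5 members tested did not pass, *Ciita* with -0.81 ± 0.36 and *H2-Aa* with -0.64 ± 0.44 among them, though *H2-Aa* (-1.07, adjusted p = 0.091) and *H2-Eb1* (0.55, adjusted p = 0.071) did without IFNγ replicate 2 of day 5. Of 15485 genes 23.1% were called higher and 24.2% lower (47.2% in either direction), and the split of 3571 higher and 3745 lower became 4263 and 2912 with values rescaled to the same total. In the control arm *H2-Ab1* had 21.9 and 18.6 at day 5 against 204 and 163 in the X-GFP–negative fraction, values that are given side by side without a test. Day 7 cells were sorted by X-GFP as well as SSEA1, day 5 cells by SSEA1 alone. In the IFNγ arm the day, the sort and the withdrawal of IFNγ cannot be told apart.

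Without IFNγ, 3 of the 9 members had a mean above 10 over NPCs and day 2 control cells, and 1 of these passed. From NPCs to day 2 control cells *H2-Ab1* fell from 100.2 and 25.5 to 13.2 and 9.93, by 2.05 on the log2 scale (SE 0.64, adjusted p = 0.032), where 37.6% of 15738 genes were called lower and 69.2% in either direction. Leaving out either of the control libraries ended the call (-2.24 without replicate 1 and -1.86 without replicate 2). Over all settings the log2 difference ran from -3.02 to -1.09, the ends being the fits with 1 NPC library left out. *H2-DMa*, with 72.0 and 89.6 in NPCs and 86.6 and 67.5 at day 2, did not pass, nor did *H2-Eb1* (-0.62 ± 0.36) unless all 24 libraries were in 1 fit (adjusted p = 0.051), and the other members were at or below a mean of 10. *Ctss* had 0 reads in NPCs and 12 over both day 2 control libraries, at least 4.36-fold higher against the floor of 3 reads over the population, and passed without the filter (adjusted p = 0.019).

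From day 2 to day 5 in the control arm, 3 members rose and 1 fell, of the 5 tested, where 34.9% of 15729 genes were called higher and 35.6% lower (70.6% in either direction), a median shift of -0.13 over all genes arising with values rescaled to the same total. Those that rose had a day 2 mean of at most 10 and entered the test through day 5, so that their count is a description. *H2-DMb1* went from 3.06 and 1.99 to 18.5 and 20.4 (log2 difference 2.56 ± 0.43, adjusted p = 0.0016) and *H2-Eb1* from 9.17 and 6.95 to 41.2 and 50.6 (2.38 ± 0.35, adjusted p = 0.00077). *Cd74* went from 7.13 and 5.96 to 15.99 and 15.1 (1.14 ± 0.39, adjusted p = 0.035) but did not pass without control replicate 2 of day 2 (1.02, adjusted p = 0.112), with DESeq2 or with all libraries in 1 fit. *H2-DMa* fell from 86.6 and 67.5 to 52.2 and 33.7, by 0.85 on the log2 scale (SE 0.30, adjusted p = 0.041), a call that was lost without replicate 1 of day 2 (adjusted p = 0.196), without replicate 2 of day 5 (adjusted p = 0.187) and with DESeq2. Y-linked feeder RNA fell between these days from 218 to 253 to 2.66 to 5.89 normalized counts, and its part in the result was not tested. The cells of these days were sorted differently, and the sort and the day cannot be told apart.

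The other genes of the pathway were described by lists. Of the 8 genes of IFNγ signaling upstream of *Ciita*, 5 were higher with IFNγ at day 2 and none lower, the median log2 fold change of the list being 0.46. At that day 5.03% of all genes tested were called higher. The transcription factor genes *Irf1* and *Irf8* had log2 fold changes of 4.37 ± 0.12 and 6.71 ± 0.12, and the feedback inhibitor *Socs1* 2.78 ± 0.13. *Irf2*, which can act as a repressor, had 0.59 ± 0.13, a call that was lost without the filter, without control replicate 2 and without either IFNγ library (adjusted p from 0.113 to 0.21). At day 5, 3 of the list and 1.65% of all genes tested were called higher. The 3 were *Irf1* by 1.88 ± 0.09, *Irf8* by 6.45 ± 0.28 and *Socs1* by 2.03 ± 0.22. In X-GFP–negative cells 3 were higher and 4 lower, in X-GFP–medium cells 4 and 4, and in X-GFP–high cells 1 and 4. Of all genes tested, 31.1%, 33.3% and 18.1% were called higher and 30.8%, 29.6% and 20.4% lower in these fractions. *Irf1* had 1.14 ± 0.07 in X-GFP–negative and 0.67 ± 0.07 in X-GFP–medium cells, and *Socs1* 1.15 ± 0.26 in X-GFP–negative cells. The receptor gene *Ifngr1* was lower in the negative (-0.67 ± 0.11), medium (-1.04 ± 0.11) and high fractions (-0.94 ± 0.14), as was *Irf2* (-1.02 ± 0.12, -2.01 ± 0.16 and -1.94 ± 0.27). *Jak2* was lower in the medium (-0.66 ± 0.08) and high fractions (-0.65 ± 0.12), and *Jak1* in the high fraction (-0.33 ± 0.07), where its call was lost without control replicate 1 (-0.27, adjusted p = 0.131).

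The 5 genes between or beside the class II genes on chromosome 17 belong mostly to class I presentation. *Tap1* and *Tap2* form the peptide transporter, *Psmb8* and *Psmb9* are immunoproteasome subunits, and *Brd2* is a chromatin reader. At day 2 and at day 5, 4 of the 5 were higher and *Brd2* did not pass (medians of the list 4.14 and 3.83). Of all genes tested, 5.03% and 1.65% were called higher at these times. *Psmb9* had 6.37 ± 0.10 and 5.49 ± 0.19, *Psmb8* 5.45 ± 0.07 and 3.83 ± 0.14, *Tap1* 4.14 ± 0.08 and 4.08 ± 0.11, and *Tap2* 3.53 ± 0.09 and 2.79 ± 0.13. At day 7, 4, 5 and 4 of the 5 were higher in the negative, medium and high X-GFP fractions, with medians of 2.21, 1.12 and 0.57. The shares of all genes tested that were called higher were 31.1%, 33.3% and 18.1%. *Tap1* had 2.21 ± 0.11, 1.38 ± 0.11 and 0.57 ± 0.14 in this order. *Tap2* had 1.68 ± 0.12, 0.72 ± 0.13 and 0.45 ± 0.18, and its call in X-GFP–high cells was lost without the filter, with DESeq2 and without either control library or IFNγ replicate 1 (adjusted p from 0.138 to 0.264).

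The genes for the proteins that the class II transactivator works with on DNA showed no call at the early times. None of the 7 genes of the class II transcription machinery passed in limma at day 2 or at day 5, with medians of 0.07 and 0.03. Among all genes tested, 8.49% and 2.18% passed in either direction at these times. At day 7, 3, 4 and 3 of the 7 passed in the negative, medium and high X-GFP fractions, as did 61.9%, 62.9% and 38.5% of all genes tested, so that these counts are near or below the background. *Rfxap*, a subunit of the RFX complex, was lower in each (-0.50 ± 0.11, -0.78 ± 0.10 and -0.62 ± 0.14), and the NF-Y subunit gene *Nfyc* was higher (0.51 ± 0.10, 0.42 ± 0.08 and 0.36 ± 0.09). Another NF-Y gene, *Nfyb*, was higher in X-GFP–negative and X-GFP–medium cells (0.33 ± 0.06 and 0.55 ± 0.06), and *Creb1* was lower in the medium and high fractions (-0.23 ± 0.08 in both). Without control replicate 1, *Rfxap* (-0.44, adjusted p = 0.139) and *Nfyc* (0.33, adjusted p = 0.114) lost their calls in X-GFP–high cells, and *Creb1* without the filter and without either control library or IFNγ replicate 1 (adjusted p from 0.103 to 0.234) and, in X-GFP–medium cells, without control replicate 2 (adjusted p = 0.19).

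Endosomal enzymes were lower or did not pass with IFNγ at day 7. Of 8, 1 was higher and 1 lower at day 2, the protease gene *Sppl2a* (0.56 ± 0.06) and the thiol reductase gene *Ifi30* (-0.72 ± 0.15), and at day 5 *Ifi30* alone passed, again lower (-0.64 ± 0.09). Of all genes tested, 8.49% at day 2 and 2.18% at day 5 passed in either direction. The call of *Ifi30* was lost at day 2 without the filter (adjusted p = 0.146) and without control replicate 1, both at day 2 (-0.58, adjusted p = 0.21) and at day 5 (-0.57, adjusted p = 0.121). At day 7, 7, 6 and 4 of the 8 were lower in the negative, medium and high X-GFP fractions and none was higher, with medians of -0.74, -0.68 and -0.33. Of all genes tested, 30.8%, 29.6% and 20.4% were called lower, and their medians were 0.016, 0.044 and 0.027. *Ctsb* had -0.83 ± 0.07, -0.97 ± 0.06 and -0.54 ± 0.08, and *Ifi30* -1.39 ± 0.08, -1.26 ± 0.07 and -1.02 ± 0.09. *Ctsd* had -1.16 ± 0.08, -0.82 ± 0.08 and -0.57 ± 0.10. *Ctsh* was lower in X-GFP–negative cells (-1.46 ± 0.22), and *Ctsz* in the medium (-0.91 ± 0.06) and high fractions (-0.62 ± 0.08).

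Of the 8 other class II chains, inhibitors and partners, 1 was higher at day 2 and none passed at day 5, out of 5 and 3 that were tested. Among all genes tested, 8.49% and 2.18% passed in either direction at these times. At day 7, 4 were tested in each fraction, of which 2 were higher and 2 lower in both X-GFP–negative and X-GFP–medium cells, where 61.9% and 62.9% of all genes passed, and none passed in X-GFP–high cells. *Mif*, whose product is a ligand of the invariant chain, was higher (0.42 ± 0.06 and 0.29 ± 0.06), and *March8*, which encodes a ubiquitin ligase, was lower (-0.33 ± 0.08 and -0.47 ± 0.08), though not in X-GFP–negative cells with values rescaled to the same total. *Cd80*, a costimulatory ligand gene, was lower in X-GFP–medium cells (-0.88 ± 0.19). The gene that passed at day 2 was *H2-Eb2*, a further class II β chain gene outside the naming rule and singled out after its values were seen, with 1 read over both control libraries and 55 over both IFNγ libraries (log2 fold change 4.21 ± 0.56, adjusted p = 0.01). It too entered the test through its IFNγ libraries.

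Across the 24 libraries, the gene whose log2 level was most like that of *Ciita* among 16247 genes was *Ak7* (Pearson r = 0.968), followed by *Igsf9b* (0.864), *Rmdn3* (0.855), *Pla2g16* (0.854) and *Stat2* (0.848). For *Cd74* these were *Stat2* (0.875), *Batf2* (0.869), *Sp110* (0.848), *Apol6* (0.847) and *Ak7* (0.834). Within the members, *H2-Eb1* and *H2-DMb1* were the most alike (0.921), followed by *H2-Aa* and *Cd74* (0.900), and *H2-DMb1* and *Ctss* the least (0.127). The libraries share a cell line, and day 2 IFNγ lies far from the rest, so that these values are descriptions.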

How the data were processed

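RNA-seq of 24 libraries from 12 populations was analysed. The authors prepared ribosome-depleted, stranded libraries, sequenced them as 50-base pairs, aligned the reads with STAR and WASP to mm10 with SNPs masked, counted them with HTSeq 0.6.1 and deposited the counts divided by DESeq2 size factors, a normalized signal. The HTSeq strand setting is not given in the sources used here. Dividing each deposited signal by its library's smallest step gave whole reads for 100.0% of values (tolerance 0.01), and these reads served DESeq2 1.42.0, edgeR 4.0.16 and the counting intervals, which cover counting error only. Depth was 24746109 to 37056508 reads per library, and 3 reads over a population were the floor.

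Identifiers were matched to GENCODE vM21 symbols (95.0% found). Differences were tested two-sided with limma 3.58.1 (R 4.3.3, trend, empirical Bayes) on log2(normalized count + 1) with 4 libraries per comparison, or 8 per interaction, over genes with a mean above 10 in them, with Benjamini-Hochberg adjustment over all genes tested and a threshold of 0.1. A log2 fold change on this scale understates the change of low genes. There were 5 IFNγ comparisons, 4 between times and 3 interactions. On simulated data the share of false calls with 2 libraries a group exceeded the threshold. Libraries were grouped by their labels, and none was left out.

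Alternatives were a pseudocount of 0.1, no filter, a fit of all 24 libraries, rescaling of each library to the same total, a replicate block, DESeq2, edgeR and leaving out each library. The members and the 5 pathway lists (36 genes) were chosen with earlier results of these data known, and 1 signaling gene is not reported here. Named were all members, the 5 genes most like *Ciita* and *Cd74*, and in each list the 4 genes with the largest change that passed and reached a mean of 100 in a group. Python 3.11.15 drew the figures and searched the promoters.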

Additional observations from a re-analysis of the deposited data

Results flagged for a closer look

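For 6 genes the IFNγ effect differed between day 5 and day 2 by an interaction term in limma, each with a smaller effect at day 5. *Ciita* and *H2-Aa* entered this test mainly through their day 2 IFNγ libraries, so that the count is a description. The difference of the log2 fold changes was -6.72 for *H2-Aa*, -5.36 for *H2-Ab1*, -5.35 for *Cd74*, -5.22 for *H2-Eb1*, -5.21 for *Ciita* and -4.19 for *H2-DMb1*.

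For 2 genes it differed between X-GFP–high and X-GFP–negative cells at day 7, by -1.85 for *Ciita* and -1.04 for *H2-Eb1*, each with a smaller effect in X-GFP–high cells. The causes of these differences were not tested.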

How the results depend on the processing

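Of 783 values of single members under another setting, 701 kept their direction and their side of the threshold, 50 lost a call, 26 gained 1 and 6 changed sign, and of 746 values of pathway genes 725 were kept and 21 lost a call. Numbers of members past the threshold moved by more than 1.5 times as follows, and the cause was not tested. At day 5, 2 members became 4 with all 24 libraries in 1 fit. X-GFP–negative cells went from 3 to 5 with values rescaled to the same total. X-GFP–high cells went from 3 to 0 without the filter, with all 24 libraries and with DESeq2. Day 2 control against NPC went from 1 to 2 without the filter and with all 24 libraries, day 5 control against day 2 control from 4 to 2 with DESeq2, and the difference between X-GFP–high and X-GFP–negative cells from 2 to 1 without the filter and with DESeq2.

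Leaving out 1 library at a time gave 7 to 9 members at day 2, 1 to 3 at day 5, 1 to 4, 3 to 5 and 0 to 4 in the negative, medium and high X-GFP fractions, 0 to 1 for day 2 control against NPC, 1 to 3 for day 5 against day 2 in control and 7 to 9 in IFNγ-treated cells, 2 to 4 for X-GFP–negative cells against day 5, 5 to 7 for the effect at day 5 against day 2, 0 to 1 for X-GFP–negative cells against day 5 and 0 to 2 for X-GFP–high against X-GFP–negative cells. It changed the sign of *H2-DMa* at day 5 (-0.17 to 0.77) and in X-GFP–negative cells (-0.019 to 0.69), and of *H2-Ab1* (-0.14 to 0.18) and *H2-DMb2* (-0.88 to 0.11) in X-GFP–high cells.

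The replicates share only a number. Their differences correlated over 16247 genes between the arms by 0.31 at day 2, 0.26 at day 5 and 0.12, 0.096 and 0.049 in the 3 X-GFP fractions, so that a replicate block, which raised the members called at day 5 from 2 to 5 (with *H2-Aa*, *H2-DMb1* and *H2-Ab1*, adjusted p = 0.0012, 0.02 and 0.03) and at day 2 from 8 to 9 (with *Ctss*, adjusted p = 0.00071) and added *H2-Ab1* in X-GFP–negative and *Cd74* in X-GFP–high cells (adjusted p = 0.041 and 0.08), rests on no known pairing.

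The number of all genes called fell without the filter from 1332 to 693 at day 2 and from 330 to 141 at day 5. At day 5 it rose to 912 with DESeq2, 2455 with all 24 libraries and 3379 with the block, which gave 4995 at day 2. For the difference between day 5 and day 2, 107 genes became 260 with DESeq2, 290 with all 24 libraries and 170 with the block. With 2 libraries a group and members at a few reads in control cells, folds of *Ciita* and *H2-DMb2* are known only within wide counting intervals.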
